A study of Drosophila melanogaster with 2 samples.

Results

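The genes described here are the Rab GTPases and the subunits of the vacuolar ATPase (V-ATPase) of Drosophila melanogaster. They were chosen by gene symbol among the protein-coding genes of the Ensembl annotation. Symbols taken were Rab followed by a number or X and then only digits or capital letters, and those that begin with Vha. The rule gave 64 of 13968 protein-coding genes, 31 Rab and 33 Vha. It took Rab3GAP1, a regulator of Rab proteins and no Rab itself. It left out Rab9Db, Rab9Fa and Rab9Fb, whose symbols end in a lower-case letter. Both families were picked with binding results of these data in view, so their peak counts are given as a description, and nothing is read from their distance to the background.

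Chromatin immunoprecipitation with sequencing (ChIP-seq) was done on whole adult males of unknown age from 1 transgenic line with a C-terminal eGFP on the zinc finger protein CG5204, encoded by kmg. Anti-GFP precipitates of 2 biological replicates made up the only group; control libraries were not used here. Kmg is known from spermatocytes, but a whole fly mixes many tissues, so signal at a gene cannot be placed in one cell type. Signal below is what the authors' caller wrote for each peak. Its units are not stated in these sources, and read depth is unknown.

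Rab proteins are small GTPases that switch between a GTP-bound form on membranes and a GDP-bound form in the cytosol, and each marks particular steps of vesicle budding, transport and fusion. The V-ATPase is a rotary pump that acidifies endosomes, lysosomes and secretory vesicles: its soluble V1 sector hydrolyses ATP and turns a ring in the membrane sector Vo, which carries protons. Many fly subunits have paralogs that are known from few tissues, several of them from the testis, beside one gene that is used widely.

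A promoter peak was a summit within 500 bp of an annotated transcription start site (TSS) of the gene, in the list of 2868 peaks that passed the irreproducible discovery rate (IDR), a measure of agreement between replicates. Of the 64 genes, 17 had one (26.6%, 95% Wilson interval 17.3 to 38.5), against a background of 12.5% of all protein-coding genes. The Rab genes held 9 of 31 (29.0%, 16.1 to 46.6) and the Vha genes 8 of 33 (24.2%, 12.8 to 41.0), so the intervals of the families overlapped widely. These intervals cover the counting of genes only. The strongest summit was upstream in each of the 17, by a median of 160 bp, as were 88.1% of the strongest promoter summits of all genes, with a median 153 bp upstream. The median pooled signal was 100.5 in the members and 97.0 in all 1748 genes with a promoter peak.

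The promoters of Rab8, Rab35 and Rab40 are shown first, because in these 3 alone of the 21 member promoter peaks a DNA replication-related element (DRE), the word TATCGATA known as the binding site of the factor Dref, lay within 100 bp of the summit. Each line gives the part outside annotated exons of a window of 60 bp to either side of the summit, on build dm6 from the Release 6 reference genome, 5′ to 3′ in the gene's direction, with the DRE in capitals.
Rab8 (chr3L:19871079-19871138, minus strand): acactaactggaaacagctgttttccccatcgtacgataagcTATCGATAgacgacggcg
Rab35 (chrX:20159946-20160066, minus strand): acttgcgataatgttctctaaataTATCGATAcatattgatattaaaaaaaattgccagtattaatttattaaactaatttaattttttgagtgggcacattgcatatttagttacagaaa
Rab40 (chrX:12463113-12463202, minus strand): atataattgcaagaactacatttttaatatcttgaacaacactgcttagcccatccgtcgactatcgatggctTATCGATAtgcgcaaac
The DRE came within 6 bp of the summit at Rab8, 29 bp at Rab35 and 13 bp at Rab40. Across the genome the same word was found within 100 bp of 5.23% of the 1550 promoter summits and of 3.14% of all 2868 summits. Of the 21 member summits, 2 had the E-box CACGTG, 1 the M1BP core GGTCACAC, 4 the TATA box word TATAAA and 6 the GAGA word GAGAG. The shares over the 1550 promoter summits were 2.65%, 2.39%, 38.3% and 21.9%. The 3 promoters were picked for the DRE, so no link to it is read from them.

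Rab8 (FBgn0262518), which directs vesicles to the plasma membrane, had its summit 5 bp upstream of a TSS, the closest of the 17. Its pooled signal was 100.7, with 66.9 in replicate 1 and 32.8 in replicate 2, so replicate 1 was 2.04 times as high. The summit also lay 56 bp upstream of Usp32, a ubiquitin protease gene that runs the other way. Rab40 (FBgn0030391), the Rab with a SOCS box that recruits a ubiquitin ligase, had a pooled signal of 67.2 at 30 bp upstream, with 33.3 and 35.9 in the replicates. Rab35 (FBgn0031090), of endocytic recycling, reached 48.3 at 134 bp upstream, with 27.9 and 19.4. Rab40 was thus a little under the median signal of the list, 73.0, and Rab35 near its lowest, 42.5.

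Rab5 (FBgn0014010), the GTPase of early endosomes and their fusion, carried the strongest Rab promoter peak. Its sequence is shown for that reason, from the same kind of window; the capitals mark a TATA-like word (TATAAA on the other strand).
Rab5 (chr2L:2363692-2363812, minus strand): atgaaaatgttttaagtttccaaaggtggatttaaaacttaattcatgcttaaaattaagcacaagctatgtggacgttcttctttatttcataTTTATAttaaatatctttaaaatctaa
The pooled signal was 189.6, rank 380 of the list, with 114.0 in replicate 1 and 77.5 in replicate 2. The summit lay in an intron of Rab5, 248 bp upstream of one of its 6 TSSs, and neither a window of 200 bp nor the outermost TSS alone gave Rab5 a promoter peak. A further Rab5 summit, 298 bp upstream of another TSS, had a pooled signal of 96.9, and there replicate 2 was the higher, at 65.1 against 33.5. The replicates therefore ordered the pair of Rab5 peaks alike but differed in how far apart they stood.

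Rab3GAP1 (FBgn0051935), the catalytic subunit of a complex that acts on Rab proteins, had 175.7 in the pooled list and a near equal 89.1 and 85.4 in the replicates, 167 bp upstream of its TSS and 86 bp upstream of CG14352. Rab39 (FBgn0029959) had 131.6, with 69.8 and 54.1. That summit was 303 bp upstream of Rab39 and 31 bp inside the gene Pdp, in its 5' untranslated region. Rab26 (FBgn0086913), known in mammals from secretory granules and synaptic vesicles, had 110.6 with 52.0 and 52.5, in its own intron 376 bp upstream of a TSS. Rab26 was the only one of the 5 tissue-limited Rab genes (Rab3, Rab26, Rab27, Rab32 and RabX4) with a promoter peak. RabX1 (FBgn0015372) had 82.4 at 94 bp upstream, with 35.6 and 42.0, a peak shared with the gene mi. Rab10 (FBgn0015789), of secretion towards the basement membrane in fly epithelia, had the lowest member signal, 45.0 at 83 bp upstream. Its peak had no replicate 1 summit within 100 bp and a signal of 22.6 in replicate 2, and its q-value was 0.191. The strongest replicate 1 region in the window, at 22.5, lay 18 bp downstream of the TSS.

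**Figure D1:**
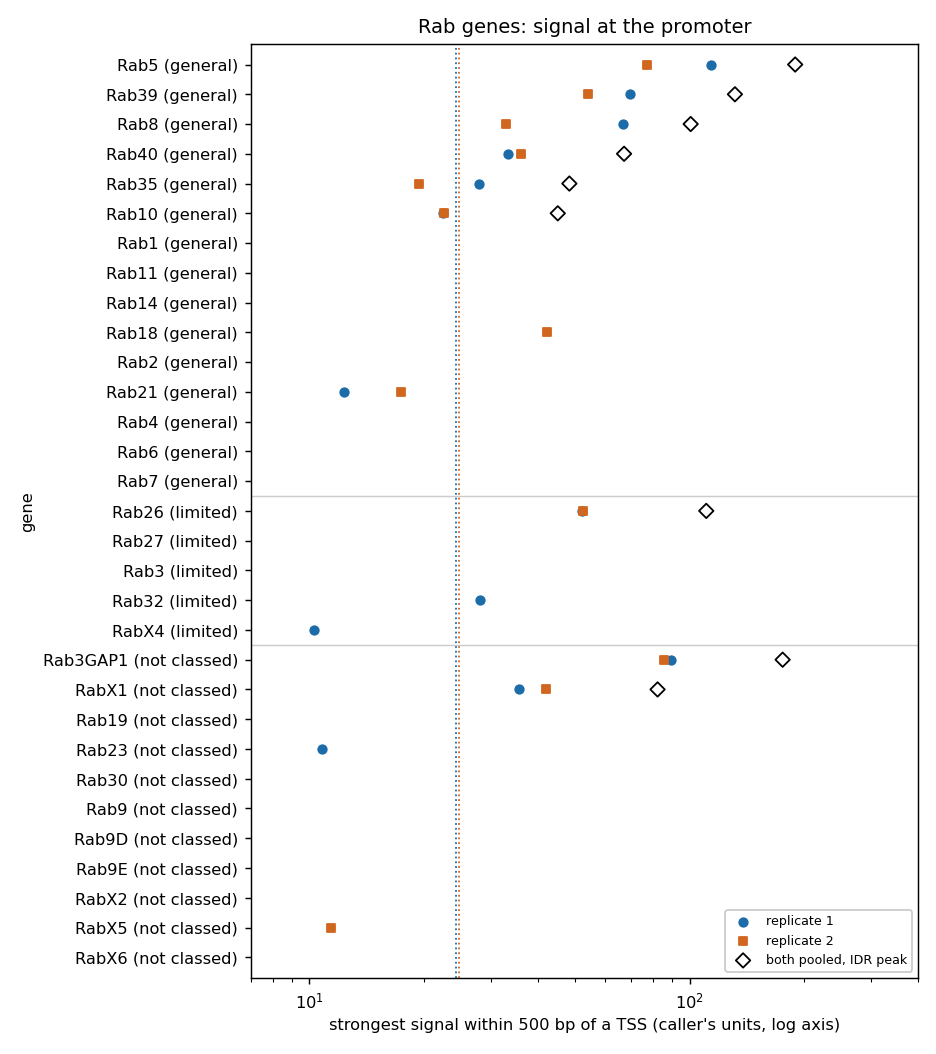
Strongest signal within 500 bp of a TSS for each of the 31 Rab genes, on a log axis in the caller's units, with 1 point per replicate and a diamond for the pooled IDR peak. Dotted lines mark the weakest of the 2868 strongest regions, 24.4 in replicate 1 and 24.8 in replicate 2. The 9 genes with a diamond run from Rab5 at 189.6 to Rab10 at 45.0, and 16 genes have no region in any list.

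Of the 15 general Rab genes of secretion and endocytosis, 6 had a promoter peak (40%, 19.8 to 64.3). Of the 5 tissue-limited Rab genes 1 had one (20%, 3.62 to 62.4), and of the 11 others 2. The background was 12.5% of all protein-coding genes, so genes without a peak are named below as a description only. Rab5 had a peak, but Rab4 of fast recycling, Rab7 of late endosomes, Rab11 of recycling endosomes and Rab21 had none. Rab1 and Rab2 of transport between endoplasmic reticulum and Golgi, Rab6 of the Golgi, Rab14 and Rab18 also lacked one. Of these, Rab21 alone had a pooled region within 500 bp, at 28.2, with 12.4 and 17.4 in the replicates, and Rab18 had 1 region, at 42.1 in replicate 2. The unclassed Rab9, Rab9D, Rab9E, Rab19, Rab23, Rab30, RabX2, RabX5 and RabX6 also had no promoter peak.

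On the X chromosome, 4 of 10 Rab genes (Rab10, Rab35, Rab39 and Rab40) and 0 of 2 Vha genes had a promoter peak, with a background of 12.8% of X-linked protein-coding genes. Rab10 and Rab35 were among the weakest of the list, and in the regions strongest in both replicates the X-linked Rab count was 2 of 10. In that setting 9.63% of all protein-coding genes had a promoter region, and the share of X-linked genes was not computed.

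In the V1 sector, the pair Vha68-2 and Vha68-1, both genes for the catalytic A subunit, shows how a gene could have a strong region in both replicates and still miss the IDR list. Sequences of both are given for that reason, from the IDR summit of Vha68-2 and the replicate 1 summit of Vha68-1, with GAGA words (GAGAG or its complement) in capitals.
Vha68-2 (chr2L:12974171-12974291, plus strand): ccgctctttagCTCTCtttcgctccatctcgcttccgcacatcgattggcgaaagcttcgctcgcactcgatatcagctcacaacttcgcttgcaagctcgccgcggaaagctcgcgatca
Vha68-1 (chr2L:13004161-13004281, minus strand): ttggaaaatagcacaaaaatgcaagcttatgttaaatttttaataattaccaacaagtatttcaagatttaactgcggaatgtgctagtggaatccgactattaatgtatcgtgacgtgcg
Vha68-2 (FBgn0263598) had a pooled signal of 100.5 at 91 bp upstream, with 40.9 in replicate 1 and 59.4 in replicate 2. Vha68-1 had 65.3 in replicate 1 and 53.7 in replicate 2, both at 114 bp upstream, so its signal was in the same range. Neither the pooled nor the IDR list held a summit within 500 bp there. The Vha68-1 region lay between Vha68-1 and mTor, which encodes the growth kinase that senses nutrients at the lysosome. Vha68-3, the testis paralog of the A subunit that stands next to Vha68-2, had no region in any list within 500 bp, and the Vha68-2 summit was the nearest IDR summit, 4555 bp away. The windows differ in base composition, with 56.2% GC at Vha68-2 and 33.1% at Vha68-1.

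The same held for the rotor subunit D. Vha36-1 had 67.4 in replicate 1 and 77.8 in replicate 2, at 74 and 68 bp upstream and shared with CG8187, and no pooled or IDR summit within 500 bp. Of the 17 members in the IDR list, Vha100-2, Rab5, Rab3GAP1 and Rab39 were higher in replicate 1, and Vha100-2 and Rab3GAP1 in replicate 2. Its paralogs Vha36-2 and Vha36-3 had 1 region each, at 10.3 and 9.2. Of 16 members with a promoter region strong in both replicates, Vha36-1 and Vha68-1 lacked an IDR promoter peak. Among all protein-coding genes this was so for 112 of 1345 (8.33%). Over the genome, 1744 regions were among the 2868 strongest of both replicates, and 102 of them (5.85%) had no pooled summit within 100 bp. Why the pooled list leaves them out was not tested.

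Of the other V1 subunits, C and G had promoter peaks. Vha44 (FBgn0287825), the C subunit that joins the sectors, had 107.5 at 73 bp upstream, with 50.7 and 56.8 in the replicates. The summit was 50 bp upstream of Hmgs, the gene for hydroxymethylglutaryl-CoA synthase of the mevalonate pathway. Vha13 (FBgn0283536), the stalk subunit G, had 53.1 at 476 bp upstream, the farthest of the 17, and replicate 1 stood 2.69 times above replicate 2 (42.8 and 15.9). That summit was nearer to Nup58, a gene of the nuclear pore, at 164 bp. A further Vha13 summit, 110 bp upstream, had 43.8 in the pooled list, 32.3 in replicate 2 and no replicate 1 summit within 100 bp. The replicate 1 summit of 42.8 lay 508 bp upstream of the Vha13 TSS, so replicate 1 had no Vha13 region within 500 bp. Vha55, the single gene of the B subunit, had 37.1 in replicate 1 and 16.1 in replicate 2 and was in neither the pooled nor the IDR list. Vha26 (subunit E), Vha14-1 and Vha14-2 (F) and VhaSFD (H) had no region within 500 bp in any list.

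In the Vo sector, subunit a holds the proton path and has 5 genes, of which Vha100-2 alone had a promoter peak. Vha100-2 (FBgn0028670) had the strongest of all members, 240.0 at rank 243, with 146.5 in replicate 1 and 94.4 in replicate 2. It lay 319 bp upstream of one TSS of Vha100-2, in the 5' untranslated region of Vti1b, a SNARE gene of vesicle fusion whose TSS was nearer, at 252 bp. A weaker peak, 50.8, stood 174 bp upstream of another TSS. It was the one left to Vha100-2 with a window of 200 bp or the outermost TSS alone, where Rab3GAP1, at 175.7, was the strongest member. Vha100-1, known from neurons, and Vha100-5 had no region, and Vha100-3 and Vha100-4 had 1 weak replicate region each, 17.4 and 13.2. The proteolipid c forms the rotating ring. Vha16-1 (FBgn0262736), its main gene, had 132.3 at 164 bp upstream, with 66.5 and 77.6, and a further peak of 53.9 at 90 bp downstream. Its paralog Vha16-5 (FBgn0032294) had 82.1 at 284 bp upstream, with 42.0 and 37.1, but this summit was 18 bp from CG12299. Vha16-2 and Vha16-3 had at most 10.9 in a replicate, and Vha16-4 had no region.

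Subunit e, a small membrane protein, was the one case where paralogs had promoter peaks and the gene classed as ubiquitous had none. The windows of both paralogs are printed for comparison; neither holds any of the 5 words searched, so all letters are in lower case.
VhaM9.7-a (chr3L:4262485-4262605, plus strand): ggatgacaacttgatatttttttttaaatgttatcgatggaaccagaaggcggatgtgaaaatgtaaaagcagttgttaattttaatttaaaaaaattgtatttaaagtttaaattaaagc
VhaM9.7-c (chr3L:4186866-4186966, minus strand): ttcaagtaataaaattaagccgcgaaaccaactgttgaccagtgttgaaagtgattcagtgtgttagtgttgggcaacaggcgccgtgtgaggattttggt
VhaM9.7-c (FBgn0028664) had 71.0 at 41 bp upstream, with 39.5 and 31.6, inside an intron of CG18675 and Teh2. VhaM9.7-a (FBgn0035521) had 62.5 at 160 bp upstream, with 32.4 and 26.9, and this summit was nearer to CG11586, at 75 bp. VhaM9.7-b had regions in replicate 1 alone, one of 58.9 at 301 bp upstream and one of 37.0 at 97 bp upstream, and VhaM9.7-d had none. The remaining Vo and accessory genes had no promoter peak. VhaPPA1-1 (subunit c'') had 30.8 in replicate 2, VhaAC39-1 (d) 16.0 and 26.8, and VhaAC45 (accessory) 19.3 and 9.8, while VhaPPA1-2, VhaAC39-2 and VhaAC45RP had no region.

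**Figure D2:**
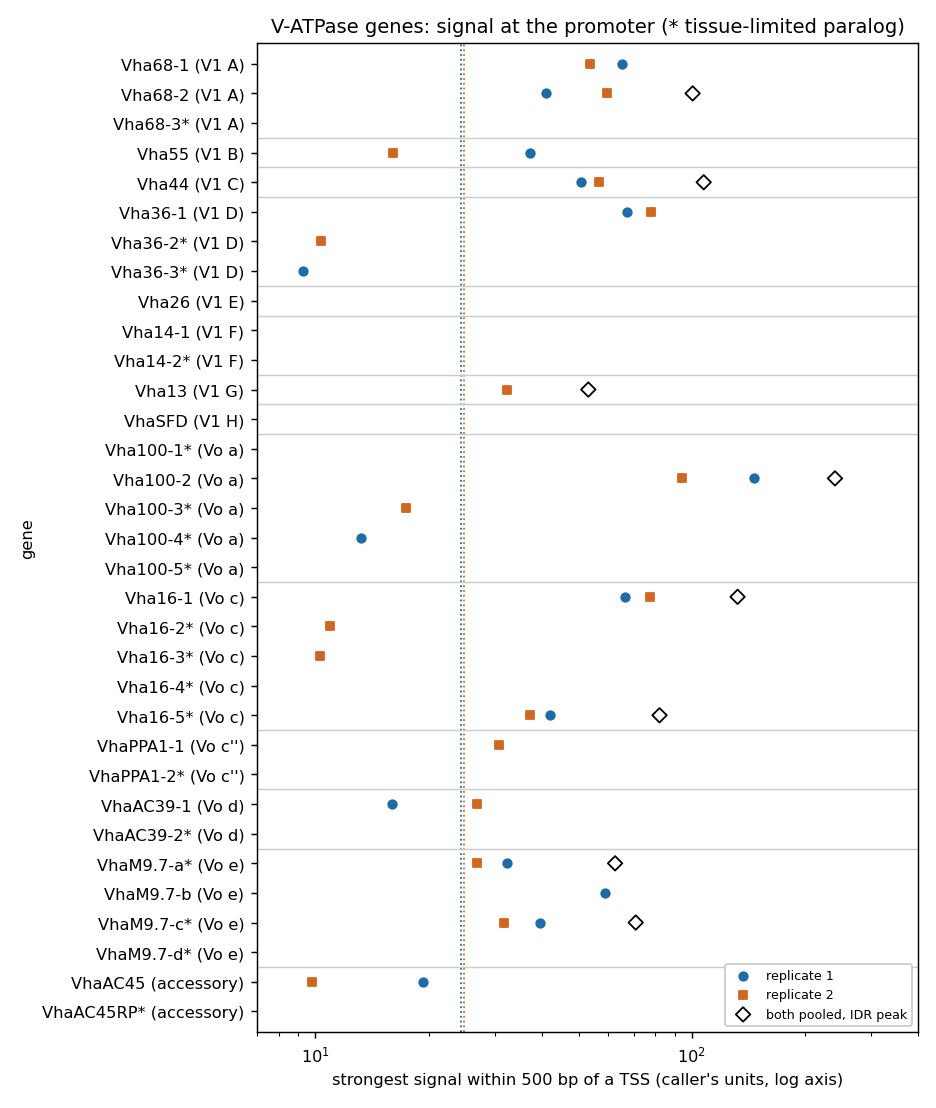
Strongest signal within 500 bp of a TSS for each of the 33 V-ATPase genes, ordered by subunit, on a log axis in the caller's units, with 1 point per replicate and a diamond for the pooled IDR peak; stars mark tissue-limited paralogs. Dotted lines mark the weakest of the 2868 strongest regions of each replicate, 24.4 and 24.8. Vha68-1 and Vha36-1 have both replicate points between 53.7 and 77.8 and no diamond.

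Grouped by breadth of use, 5 of 15 ubiquitous Vha genes (33.3%, 15.2 to 58.3) and 3 of 18 tissue-limited paralogs (16.7%, 5.84 to 39.2) had an IDR promoter peak, with overlapping intervals. The counts of the classes differed more when each replicate was read by itself. Among the 2868 strongest regions of replicate 1, where 14.2% of all genes had a promoter region, the ubiquitous genes held 8 of 15 and the paralogs 3 of 18. In replicate 2, with a background of 13.2%, they held 9 and 3. Taking regions strong in either replicate, with a background of 17.1%, the ubiquitous genes held 11 of 15 (73.3%, 48.0 to 89.1) and the paralogs again 3 of 18. Requiring the region in both replicates, with a background of 9.63%, left 6 and 3. The reading by either or both replicates was chosen after seeing the data and was not tested. The 4 ubiquitous genes without a strong region in either replicate were Vha14-1, Vha26, VhaSFD and VhaAC45. The Rab genes moved less, with 9 in replicate 1, 8 in replicate 2, 10 in either and 7 in both.

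**Figure D3:**
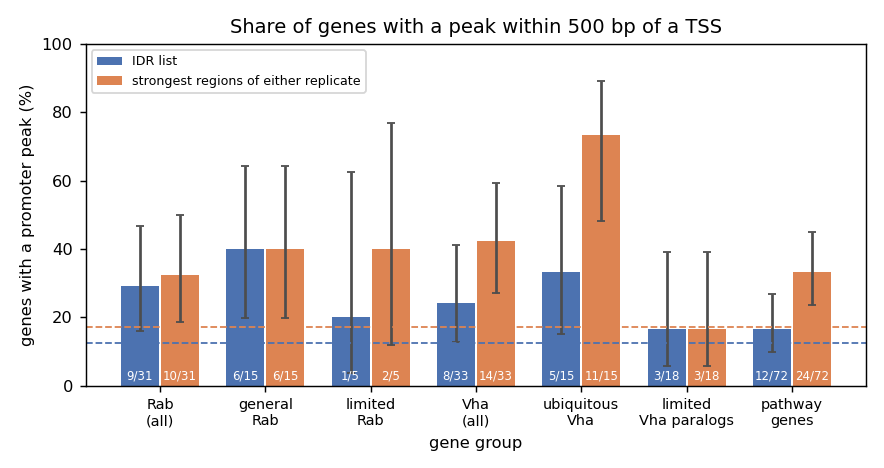
Share of genes (%) with a promoter peak in the IDR list and among the 2868 strongest regions of either replicate, with counts in the bars and 95% Wilson intervals as lines. Dashed lines are the shares of all protein-coding genes, 12.5% and 17.1%. Ubiquitous V-ATPase genes go from 5 to 11 of 15, and the paralogs are at 3 of 18 in both.

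The count depended on how a promoter peak was defined, in the members as in all genes. A window of 200 bp left 13 members (background 8.21%) and one of 1000 bp took in 20 (14.5%). The stronger 1434 of the IDR peaks left 11 (8.03%), and a false discovery rate of at most 5% in the pooled list left 14 (9.42%), without Rab10, Rab35 and Vha13. Any region of the pooled list gave 24 (31.7%). The outermost TSS alone gave 15 (10.8%), peak intervals that cover the TSS 13 (7.9%), and counting each peak for its nearest gene alone 12 (9.82%).

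In 11 of the 17 strongest peaks the summit was also within 500 bp of a TSS of another protein-coding gene. These were 6 of 9 in the Rab genes and 5 of 8 in the Vha genes. The same share over all genes with a promoter peak was not computed, so the count is a description only. The summits were intergenic in 11, in an intron in 3 and in a 5' untranslated region in 3. Of the 17, 16 had a region within 100 bp in both replicates, as had 2523 of all 2868 IDR peaks, and replicate 1 was the higher in 10. The ratio of replicate 1 to replicate 2 had a median of 1.17 and ran from 0.689 at Vha68-2 to 2.69 at Vha13. Across all IDR peaks its median was 0.961, with quartiles of 0.745 and 1.21.

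Among the 47 members without a promoter peak, 10 had an IDR summit between 501 and 2500 bp from a TSS, 7 Rab and 3 Vha, and 28 had none within 10 kb. Just outside the window came Rab14 (558 bp downstream, pooled signal 126.9), Vha14-1 (849 bp downstream, 234.2) and Rab9 (871 bp downstream, 74.5). The summits at Rab14 and Rab9 lay in introns of these genes, and that at Vha14-1 lay beyond the 3' end of the gene. Just inside it were Vha13 (476 bp) and Rab26 (376 bp). For Rab3, of synaptic vesicles, the nearest summit, 201.7, lay 2004 bp upstream in an intron of Daao1. The nearest summits of Rab23 (1143 bp, in an intron of plx) and RabX4 (1734 bp) were upstream. Those of RabX5 (1386 bp) and Rab32 (1698 bp) were downstream, beyond the 3' end of each gene. The farthest was Vha14-2, at 110682 bp. A pooled region of any strength within 500 bp was found for 1 of the 22 Rab genes and 6 of the 25 Vha genes without a promoter peak. With or without a promoter peak, 31.7% of all protein-coding genes and 24 of the 64 members had such a region. Shares over all genes without a promoter peak were not computed for these regions or distances, so the counts are a description only.

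**Figure D4:**
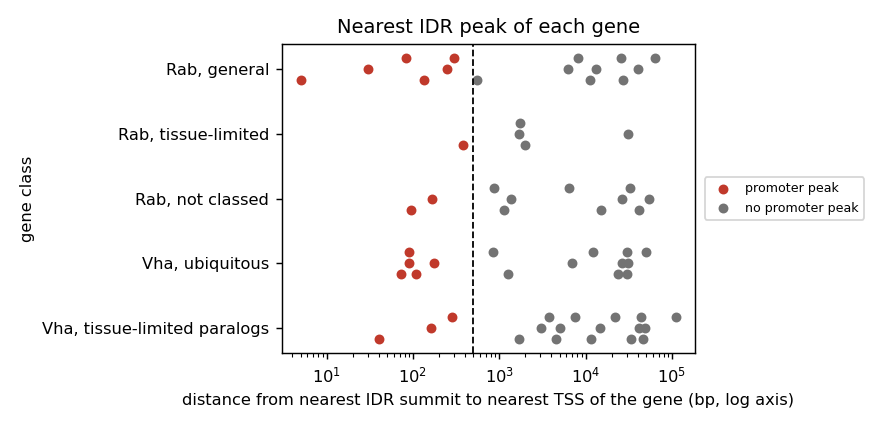
Distance (bp, log axis) from the nearest IDR summit to the nearest TSS for each of the 64 genes, in rows by class, with red points for the 17 genes with a promoter peak and a dashed line at 500 bp. Between 500 and 1000 bp lie 3 genes, Rab14 nearest at 558 bp.

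Promoter features of the families are given next. The choice by symbol did not use them, but both families were picked with binding results in view. The shares are therefore a description, and differences between the families were not tested. In the 300 bp from 250 before to 50 after the 5' end, a DRE was present on either strand in 11 of 31 Rab genes (35.5%), 2 of 33 Vha genes (6.06%) and 9.36% of all protein-coding genes. The Rab genes were Rab2, Rab6, Rab7, Rab8, Rab14, Rab19, Rab27, Rab30, Rab35, Rab40 and RabX6. The DRE was as common without a peak as with one: 3 of 9 Rab genes with a promoter peak and 8 of 22 without one had it. In all genes it was in 12.2% of those with a promoter peak and 8.95% of those without. The TATA box word TATAAA was in 9 of 31 Rab genes, 17 of 33 Vha genes and 45.8% of all genes. The GAGA word was in 4 of 31, 9 of 33 and 29.7%. The E-box CACGTG was in 1 of 31 (3.23%), 3 of 33 (9.09%) and 4.20% of all genes. The core GGTCACAC of the M1BP site was in 4 of 31 (12.9%), 4 of 33 (12.1%) and 7.69% of all genes.

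A neighbour that runs head to head from within 1000 bp was present at 19 of 31 Rab genes (61.3%), 12 of 33 Vha genes (36.4%) and 33.3% of all genes. With a promoter peak it was 8 of 9 Rab genes and 3 of 8 Vha genes, and without one 11 of 22 and 9 of 25. Among all genes it was 50.6% with a promoter peak and 30.8% without. A single annotated TSS was found in 52.9% of the members with a promoter peak and 80.9% of those without, and the corresponding shares were 52.5% and 76.5% in all genes. More start sites give a gene more windows in which a summit can fall, and whether this bears on these shares was not tested.

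**Figure D5:**
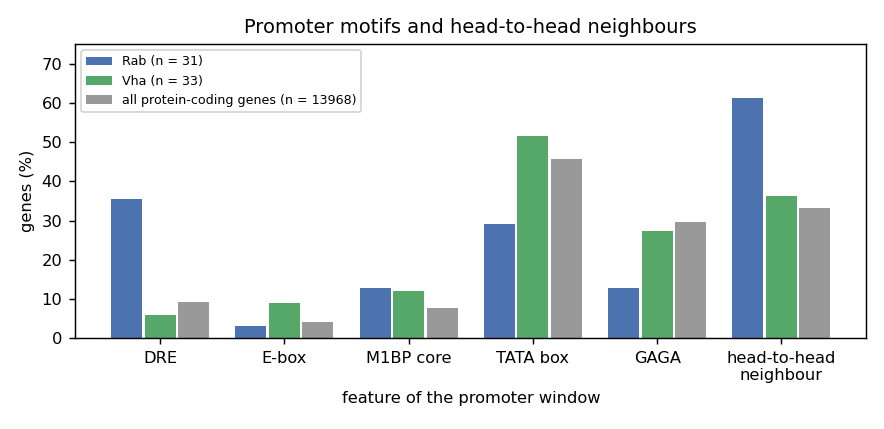
Share of genes (%) whose 300 bp promoter window holds each word on either strand, and share with a head-to-head neighbour within 1000 bp, for 31 Rab genes, 33 Vha genes and all 13968 protein-coding genes. The Rab bars stand above the other bars for the DRE, 35.5%, and for head-to-head neighbours, 61.3%. For the M1BP core the Rab bar, 12.9%, is close to the Vha bar, 12.1%, with 7.69% in all genes.

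Genes that act with these proteins were read from lists of regulators and partners. Of 72 found, 12 had a promoter peak (16.7%, 9.80 to 26.9), beside 12.5% of all protein-coding genes. The lists were chosen with earlier results of these data known, so the count is a description. By list these were 6 of 22 Rab regulators (27.3%), 4 of 34 effectors and tethers (11.8%) and 2 of 16 genes of V-ATPase assembly and the lysosome (12.5%). The exchange factor that acts on Rab7 is made of Mon1 and Ccz1, and both genes had peaks, 148.3 (73.2 and 75.7 in the replicates) and 82.4 (49.1 and 32.1), while Rab7 had none. The Rab regulators Rich (96.1), Crag (76.6) and Gdi (67.7), the last of which extracts Rab proteins from membranes, also had one. Vps33B, of the machinery that tethers endosomes, had the strongest, 574.8 at rank 40, with 266.7 and 315.7, above every Rab and Vha gene. Its summit, 210 bp upstream, was shared with Fur1, a furin protease gene. The tether subunit Vps8 had 59.2, and Rph (52.5) and btsz (46.5), effectors in secretion, were close to the end of the list. The lysosomal genes CtsB, a cathepsin, and Cln3 had 81.6 and 70.7.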

How the data were processed

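Peak lists in narrowPeak format on build dm6 were analysed: 30000 regions for each of 2 replicates and for the pooled replicates, background included, and 2868 IDR peaks. The signal of each region is the deposited value, and the authors' significance column holds the −log10 q-value. Caller and aligner: not given in the sources used here. Since 2590 of the IDR peaks were 430 bp wide, summits were used. No read totals are at hand, so depth and its precision are unknown.

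Distances were taken to every TSS of Ensembl release 115, and a member's value is its strongest promoter peak. A replicate region was matched to an IDR summit within 100 bp. Sequences came from the Release 6 reference genome, with coordinates counted from 1. Members, classes and pathway lists were chosen with earlier results of these data known, and the classes rest on general knowledge of the genes, not on expression measured here; 125 of 129 list symbols were found. Every member is named with its class or subunit, and of each pathway list the strongest genes with a promoter peak are named. Among the regulators, 1 gene that this rule takes is not reported here, and Crag and Gdi lie beyond the strongest 4 and were chosen after their values were seen. Nothing was tested, since 1 group of 2 replicates gives a spread and no comparison.

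Alternatives were windows of 200 and 1000 bp, the stronger 1434 peaks, a false discovery rate of at most 5%, each replicate alone, any pooled region, the outermost TSS, peak intervals and the nearest gene. Regions strong in both or in either replicate were added after seeing the data. The software was pandas 2.3.3, numpy 2.4.6, matplotlib 3.10.9 and scipy 1.17.1 under Python 3.11.15, and the promoter call was tested on simulated data.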

Additional observations from a re-analysis of the deposited data

How the results depend on the processing

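Of 85 recomputed counts over 7 gene groups, 66 were within 1.5 times the value reported and 19 were not. The share of all protein-coding genes moved as well, from 12.5% to 8.03% in the stronger peaks and 9.82% with the nearest gene alone. It was 17.1% in either replicate and 31.7% with any pooled region. With any pooled region the Rab genes (32.3%) and the Vha paralogs (33.3%) were near that share, and the ubiquitous Vha genes were at 53.3%. The Vha count of 8 became 5 in the stronger peaks and with the nearest gene alone, and 14 with any pooled region and with regions strong in either replicate. The ubiquitous Vha count of 5 became 8 with any pooled region and 11 in either replicate, and was 8 to 9 when 1 replicate was left out. The paralog count of 3 became 1 in the stronger peaks and with the nearest gene alone, and 6 with any pooled region. The general Rab count of 6 became 3 in the stronger peaks. The tissue-limited Rab count of 1 became 0 with 200 bp, the outermost TSS and peak intervals that cover the TSS, 2 in either replicate, and 1 to 2 when 1 replicate was left out. The pathway count of 12 became 7 in the stronger peaks and 24 in either replicate. The Rab count with Rab3GAP1 left out and Rab9Db, Rab9Fa and Rab9Fb added was 8 of 33. The cause of these shifts was not tested. For the members with a promoter peak, signals read from 1 replicate were lower than pooled ones. Where the peak had a region in both replicates, their signals added up to about the pooled value (median ratio of sum to pooled 0.995). Apart from signals read from 1 replicate, the member signal that moved beyond the replicate spread was that of Vha100-2. It went from 240.0 to 50.8 with 200 bp and with the outermost TSS alone. No paired analysis was possible because the labels give 1 group. Without read depth, a gene without a region cannot be called unbound, and peaks shared by neighbouring genes cannot be assigned to one of them.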
